A study of Mus musculus with 12 samples.

Results

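The structural genes of the extracellular matrix were followed in mouse gastruloids, aggregates of embryonic stem cells that break symmetry and elongate in culture. All genes were taken whose symbol names a collagen or laminin chain, together with Fn1 (fibronectin), Fbn1 and Fbn2 (fibrillins) and Nid1 and Nid2 (nidogens). That gave 60 matrix genes among 38911 named genes in the deposited files. They fall into 11 fibrillar collagens, 9 collagens of the basement membrane, 24 other collagens, 11 laminin chains and the 5 genes named above. The rule reads symbols only. A count was present in at least 1 library for 59 of them, and 50 passed the filter on low counts and were tested. The filtered genes were Col10a1, Col15a1, Col28a1, Col4a3, Col5a3, Col6a4, Col6a5, Col8a1, Col8a2 and Lama2, and Col8a1 had 0 counts in all 12 libraries. The filter can pass a gene through the group in which it is high, so the tested genes do not stand for all 60.

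Gastruloids were made from E14TG2a, a mouse embryonic stem cell line grown on fibroblast feeders in its first passages and later without them. The cells were kept in 2iLIF medium before plating, and polyA RNA of the gastruloids was sequenced on day 4. Per the study's methods, all gastruloids received a Wnt agonist, CHIR99021, before day 3 to induce mesodermal fate. From day 3 to day 4 they were held without glucose (0× glucose), in 21.25 mM glucose (1× glucose), in 63.75 mM glucose (3× glucose), or in 1× glucose with 5 mM 2-deoxyglucose (2-DG), a glucose analogue that blocks glycolysis and is also built into glycans in place of mannose. Each of the 4 groups had 3 libraries, 1 from cells of each of the passages 13, 15 and 16, and each library pooled the gastruloids of 1 treatment in 1 biological replicate. All libraries come from 1 cell line.

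Matrix proteins assemble outside the cell into 2 broad kinds of structure, the interstitial matrix and the basement membrane. The basement membrane is a thin sheet built on a laminin polymer, where each laminin joins an α, a β and a γ chain, and on a collagen IV network, with nidogens as linkers between them. Fibronectin fibrils, assembled by integrins, and fibrillin microfibrils surround the presomitic mesoderm and the somites in the embryo. Nearly all of these proteins are glycoproteins folded and modified in the endoplasmic reticulum. RNA levels do not say how much protein was made, secreted or assembled.

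The libraries held 31902471 to 45956080 counts, and the matrix genes took 0.264% to 0.415% of them. Fn1 alone took 17.8% to 47.0% of the matrix counts. T, Cdx2, Tbx6 and Sox2, marker genes of the posterior gastruloid, were at 35.5 CPM (counts scaled to a common library size) or more in every library, whereas Zfp42, a marker of naive pluripotency, was at 1.84 CPM or less. The pluripotency genes Pou5f1 and Nanog were at 20.2 to 53.1 CPM and 1.02 to 5.12 CPM. Passage 13 stood apart from passages 15 and 16, with 46.1% of all 16966 tested genes differing (edgeR adjusted p under 0.05 with treatment and passage in the fit), and for this reason values are given by passage. The order of passages in each list of values is 13, 15 and 16.

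Fibronectin RNA led the matrix genes in 1× glucose. Levels of different genes were compared per kilobase (kb) of the longest coding transcript. On that scale Fn1 stood at 160.4 ± 72.2 CPM per kb (SD, n = 3), Nid2 at 69.9 ± 6.57 and Lamb1, the laminin β1 chain, at 43.3 ± 4.85. Col4a1 followed at 27.8 ± 5.53 CPM per kb, Lamc1 (laminin γ1) at 22.8 ± 1.62, Col18a1, the source of endostatin, at 21.9 ± 7.83, Lama1 (laminin α1) at 19.3 ± 5.39, Lama5 (laminin α5) at 16.2 ± 2.61 and Col4a2 at 13.9 ± 2.07. From Col4a1 to Col4a2 each neighbour in this order lay within 1 SD of the next, so the order of neighbours is not resolved. The ends of this row were apart, as Col4a1 was 1.89 to 2.12 times Col4a2 per kb in the 3 libraries. The α1 or α5, β1 and γ1 chains were thus the abundant laminin transcripts. Lama3 and Lamb3, chains known from stratified epithelia, reached at most 1.24 and 1.97 CPM in any library. Collagen I and III, the bulk collagens of connective tissue, were scarce: Col1a1, Col1a2 and Col3a1 did not exceed 0.696, 4.11 and 3.75 CPM.

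**Figure D1:**
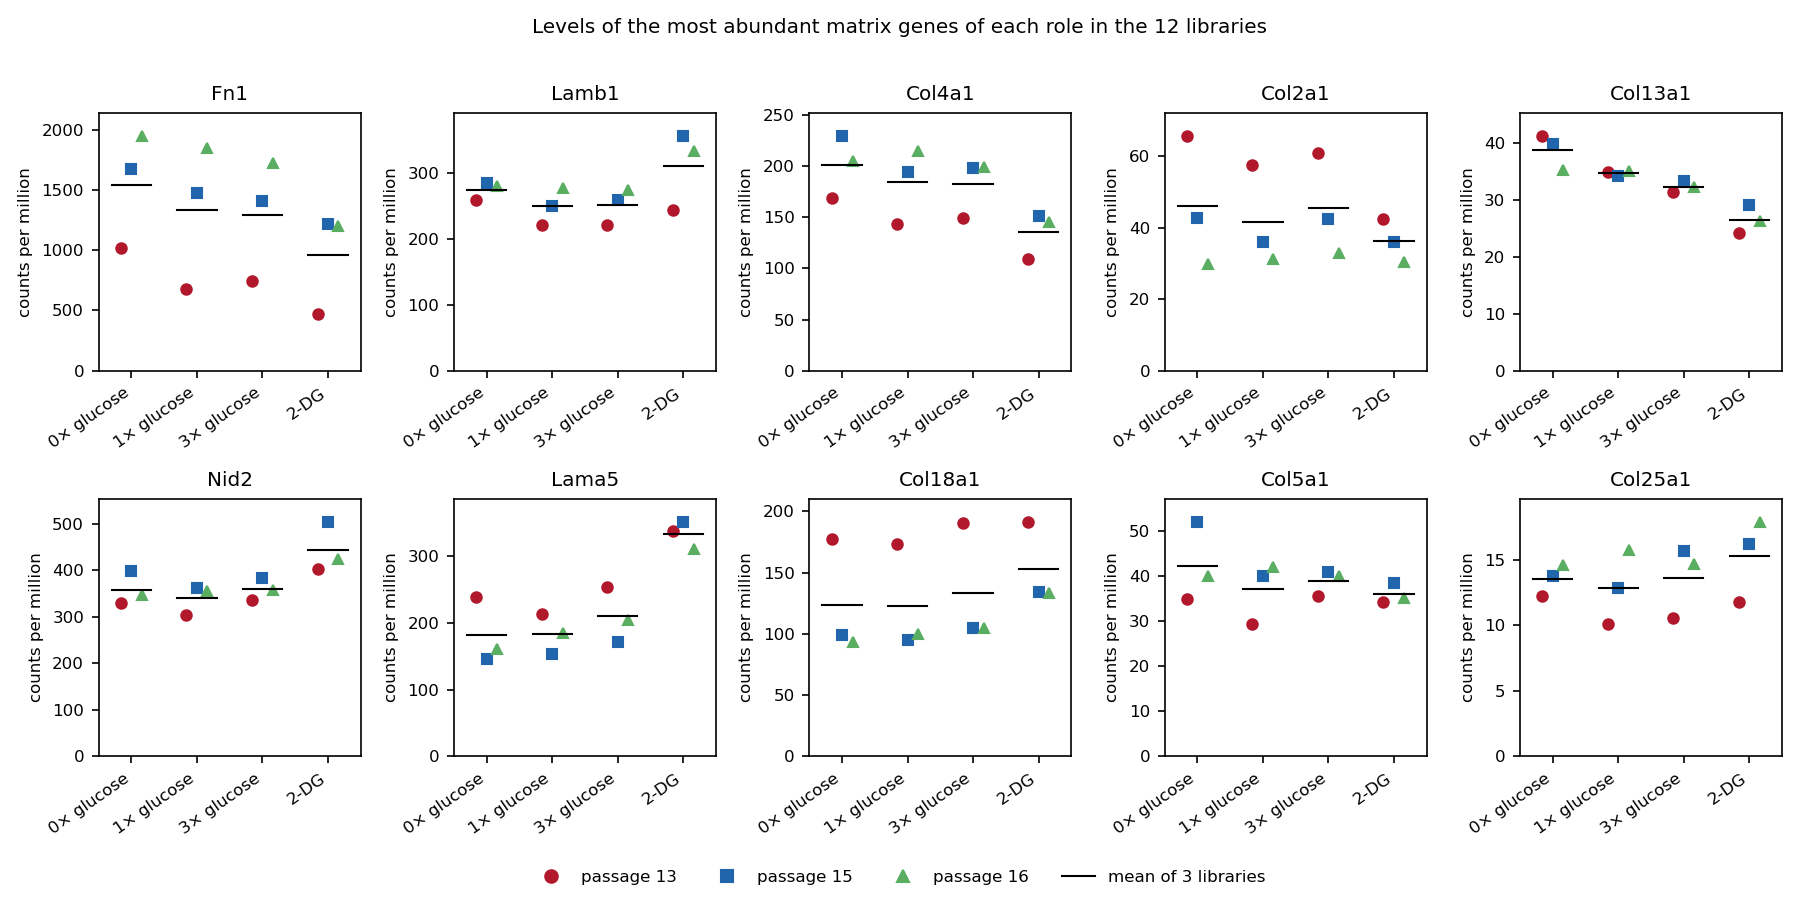
Levels in CPM of the most abundant tested genes of each role, with 1 point per library, marked by passage, and a line at the mean of the 3 libraries of a group. Fn1 was lowest in passage 13 in each group, and Lama5 was higher in the 2-DG libraries than in all others.

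The first comparison asked how these genes differed between 2-DG and 1× glucose. Of 50 tested matrix genes, 15 changed (30%), 11 higher and 4 lower, against 17.6% of all tested genes. Among the genes that rose were 4 laminin chains and the minor collagen IV chains Col4a5 and Col4a6, and Col12a1 had the largest fall among the genes called. The median log2 fold change of the matrix genes was -0.07, against 0.0023 over all tested genes, so their directions were mixed. Libraries of 1 passage deviated together from their group means. With the passage as a block 30 of the 50 changed, 15 higher and 15 lower, against 41.3% of all genes, and the 15 genes called without the block were all among them. Leaving out passage 13 gave 26 calls, of which 14 were among the 15, against 20.1% of all genes. Leaving out the 1× glucose library of passage 15 gave 9, all among the 15, against 10% of all genes. In these bulk samples fewer cells of a type and less RNA per cell cannot be told apart.

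**Figure D2:**
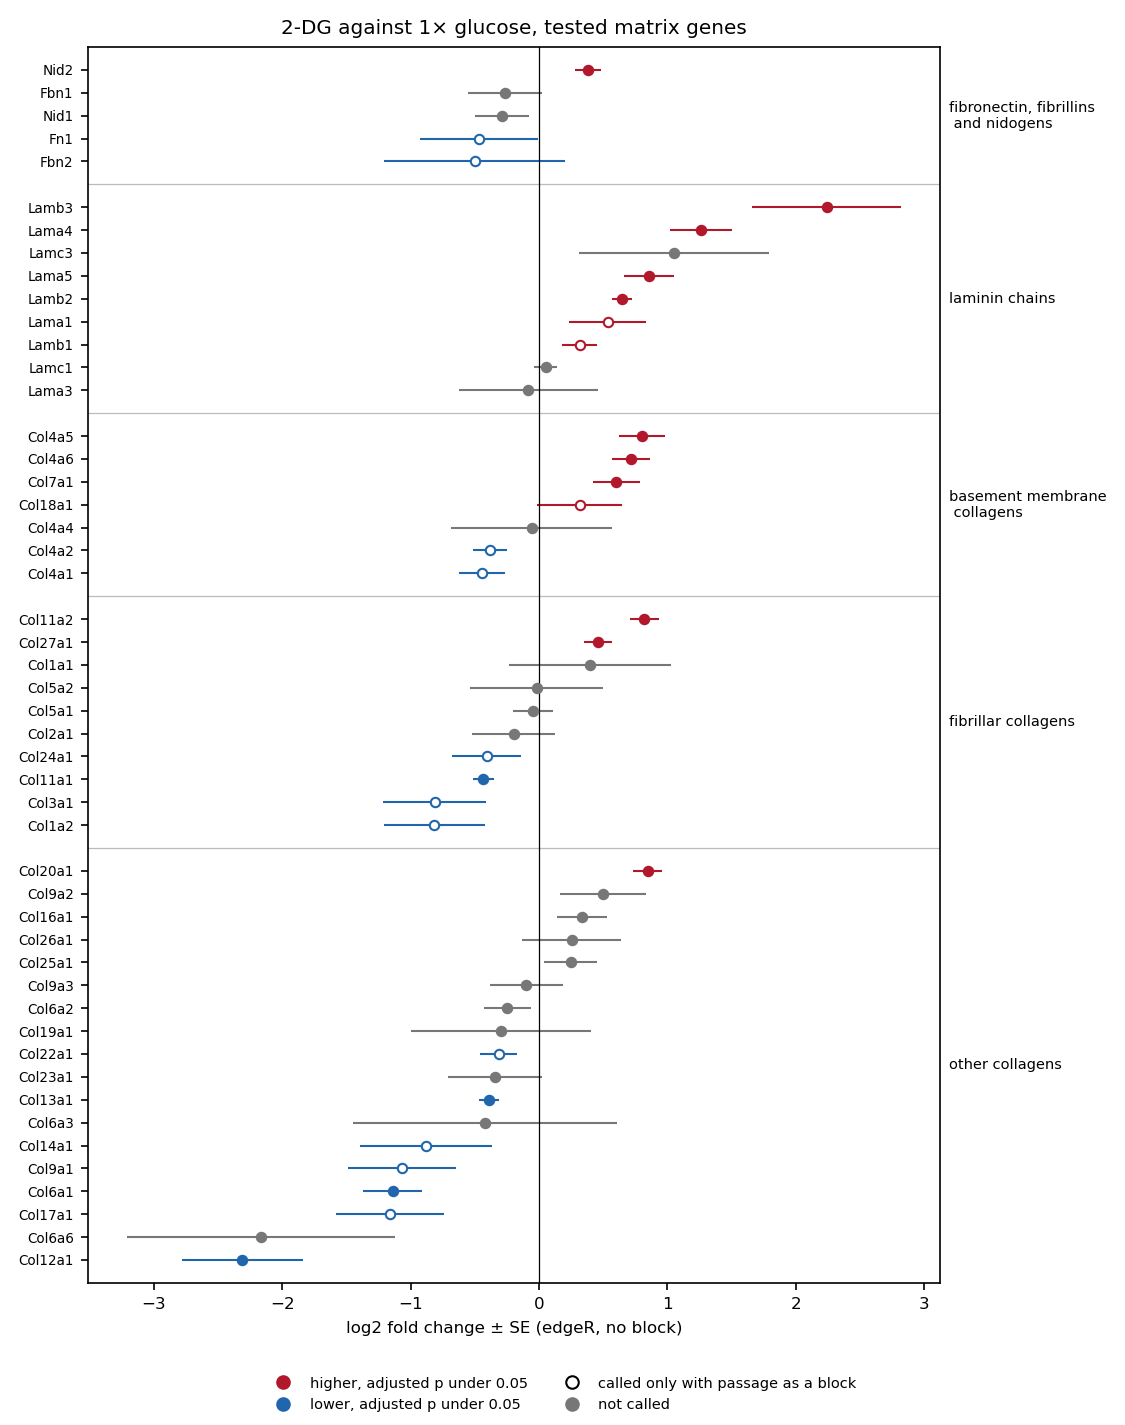
Log2 fold change in 2-DG against 1× glucose of the tested matrix genes reported here, by role, with SE bars from the fit without a block. Filled red and blue points passed the threshold without the block and open ones only with it, and the 4 called laminin chains all lie above 0.

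The laminin calls were all upward in 2-DG. Of 10 tested chains 4 rose and 0 fell (40%, beside the 17.6% of all genes), and 9 lay above 0, with a median log2 fold change of 0.75. Lama5, which encodes the α5 chain of the most widespread laminins, stood at 213, 154 and 185 CPM in 1× glucose and at 337, 351 and 311 CPM in 2-DG. All 3 2-DG libraries were above all 3 controls, and Lama5 was 1.81-fold higher (log2 fold change 0.86 ± 0.19 SE, edgeR adjusted p = 0.0135). That call was lost without the passage 15 library of 1× glucose (edgeR adjusted p = 0.0603) or of 2-DG (0.0502). Both of these fits had no block, and with the block and all libraries the edgeR adjusted p was 1.91e-04. Lamb2, the β2 chain that takes the place of β1 in some laminins, stood at 32.7, 30.5 and 32.4 CPM in 1× glucose and at 54.4, 50.4 and 44.8 CPM in 2-DG. The groups did not overlap, and its spread within a group was small (log2 fold change 0.65 ± 0.076 SE, edgeR adjusted p = 5.41e-04). Lama4, the α4 chain known from vessel walls, rose from 0.878, 0.579 and 0.95 CPM to 1.46, 1.85 and 2.48 CPM (log2 fold change 1.26 ± 0.24 SE, edgeR adjusted p = 0.00634). Lamb3, the β3 chain of the epithelial laminin, had 13, 7 and 27 counts in 1× glucose and 55, 55 and 74 counts in 2-DG (log2 fold change 2.24 ± 0.58 SE, edgeR adjusted p = 0.0241). Both genes thus rose from very low levels. The Lamb3 call was lost in 7 of 13 alternatives, all without the block (edgeR adjusted p = 0.00122 with the block). It was lost when either passage 13 library was left out (edgeR adjusted p = 0.0671 without 1× glucose and 0.0547 without 2-DG). Likewise it was lost without either passage 15 library or the 2-DG library of passage 16 (0.088, 0.057 and 0.0714).

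Among the abundant chains, Lamb1 stood at 222, 251 and 278 CPM in 1× glucose and at 244, 356 and 335 CPM in 2-DG. It was higher in each passage but the groups overlapped (edgeR adjusted p = 0.137), and it was called with the block (log2 fold change 0.31 ± 0.069 SE, edgeR adjusted p = 0.00497 with the block). Lama1 behaved alike, at 125, 217 and 210.5 CPM against 166, 342 and 292 CPM (log2 fold change 0.52 ± 0.083 SE, edgeR adjusted p = 7.06e-04 with the block), where the fit without the block gave an edgeR adjusted p of 0.257. Lamc1, the γ1 chain that most laminins share, stood at 176, 161 and 186 CPM and 172, 185 and 184 CPM, and its difference had a 95% interval of -0.13 to 0.23 on the log2 scale. The ratio of Lama5 to Lama1 per kb was 1.43, 0.593 and 0.736 in 1× glucose and 1.7, 0.859 and 0.892 in 2-DG, higher in each passage but overlapping between groups.

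The collagen IV genes split by pair. Collagen IV is encoded by gene pairs that lie head to head on opposite strands. Col4a1 (chr8:11198423-11312889, GRCm38) and Col4a2 (chr8:11312805-11449287) form the ubiquitous network, and Col4a5 (chrX:141475370-141689236) and Col4a6 (chrX:141165403-141474095) form chains of a minor network. The promoter windows of both pairs are shown because, with the passage as a block, the pairs moved in opposite directions. Each window runs from 250 bases before to 50 bases after a RefSeq start, which need not be the outermost end of the gene, and is read on the strand of the gene in GRCm38.p6. Capitals mark matches, on either strand, to CCAAT or GGGCGG, the letters of the CCAAT box and the GC box.

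Col4a1, chr8:11312777-11313076, minus strand: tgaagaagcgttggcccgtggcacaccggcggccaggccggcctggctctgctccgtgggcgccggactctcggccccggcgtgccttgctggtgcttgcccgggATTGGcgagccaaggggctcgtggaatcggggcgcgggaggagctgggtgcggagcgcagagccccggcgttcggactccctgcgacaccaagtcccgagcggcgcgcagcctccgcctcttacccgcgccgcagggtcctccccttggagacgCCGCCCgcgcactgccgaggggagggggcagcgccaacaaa
Col4a2, chr8:11312555-11312854, plus strand: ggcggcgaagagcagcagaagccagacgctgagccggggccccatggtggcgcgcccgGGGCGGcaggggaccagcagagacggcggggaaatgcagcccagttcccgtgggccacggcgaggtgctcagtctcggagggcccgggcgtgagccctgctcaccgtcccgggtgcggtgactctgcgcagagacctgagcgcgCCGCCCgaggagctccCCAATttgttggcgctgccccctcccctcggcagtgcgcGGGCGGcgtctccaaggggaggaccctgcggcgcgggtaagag
Col4a5, chrX:141475169-141475468, plus strand: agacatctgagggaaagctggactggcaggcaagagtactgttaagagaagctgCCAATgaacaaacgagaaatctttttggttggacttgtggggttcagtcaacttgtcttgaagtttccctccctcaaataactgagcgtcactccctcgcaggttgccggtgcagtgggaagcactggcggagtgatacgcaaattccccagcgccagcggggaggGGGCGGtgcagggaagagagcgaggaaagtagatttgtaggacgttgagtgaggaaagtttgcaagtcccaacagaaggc
Col4a6, chrX:141474027-141474326, minus strand: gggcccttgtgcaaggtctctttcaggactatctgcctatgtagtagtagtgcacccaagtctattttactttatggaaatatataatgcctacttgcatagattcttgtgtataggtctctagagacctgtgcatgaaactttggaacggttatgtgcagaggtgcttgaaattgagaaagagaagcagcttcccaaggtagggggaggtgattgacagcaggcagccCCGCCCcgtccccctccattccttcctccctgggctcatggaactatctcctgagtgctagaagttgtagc

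The Col4a1 and Col4a2 windows overlap by 78 bases, whereas 842 bases lie between those of Col4a6 and Col4a5. The windows of the first pair hold 74% and 73.7% G and C and 37 and 33 CG pairs, and those of Col4a5 and Col4a6 hold 52.7% and 48.3% and 11 and 3 CG pairs. The median over all 32851 windows of the table is 52.7% with 7 CG pairs. CCAAT is found in all of these windows but that of Col4a6 and in 37.4% of all windows, and GGGCGG in all 4 and in 35.7% of all windows. The other motifs searched in the same way are in none of the 4 windows. They are TCACAC (in 14.5% of all windows), CTTTGA (in 16%), TGACGTCA (in 1.79%) and AGATAA (in 11.2%). The table held windows for 42 of the 60 matrix genes, 46 windows in all, of which 28 hold GGGCGG and 15 hold CCAAT. These matches are letters in a sequence and do not show binding.

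Col4a5 stood at 21.7, 15.4 and 16.5 CPM in 1× glucose and at 34.9, 28.3 and 30.3 CPM in 2-DG, 1.75-fold higher (log2 fold change 0.8 ± 0.18 SE, edgeR adjusted p = 0.0124). Col4a6 went from 18.5, 14.1 and 15 CPM to 26.5, 24.8 and 26.8 CPM, 1.64-fold higher (log2 fold change 0.71 ± 0.15 SE, edgeR adjusted p = 0.00861). For both genes the lowest 2-DG library was above the highest control. Col4a1 stood at 143, 194 and 214 CPM in 1× glucose and 109, 151 and 145 CPM in 2-DG, and Col4a2 at 74, 95.4 and 98.7 CPM and 60.9, 75.7 and 68.7 CPM. Both were lower in each passage, and by a factor of 1.36 and 1.31 in the fit without the block. Their groups overlapped, so that neither was called without the block (edgeR adjusted p = 0.119 and 0.0716), whereas both fell with it (9.29e-05 and 6.87e-04). The ratio of the summed Col4a5 and Col4a6 levels to those of Col4a1 and Col4a2, per kb, was 0.184, 0.102 and 0.10 in 1× glucose and 0.36, 0.233 and 0.266 in 2-DG, without overlap. In 0× and 3× glucose it was 0.137, 0.0768 and 0.0973 and 0.183, 0.104 and 0.109. Within a pair the 2 genes kept a narrow ratio, as Col4a1 was 1.75 to 2.15 times Col4a2 per kb and Col4a5 0.941 to 1.34 times Col4a6 over the 12 libraries. These ratios were chosen after the values were seen and were not tested.

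**Figure D3:**
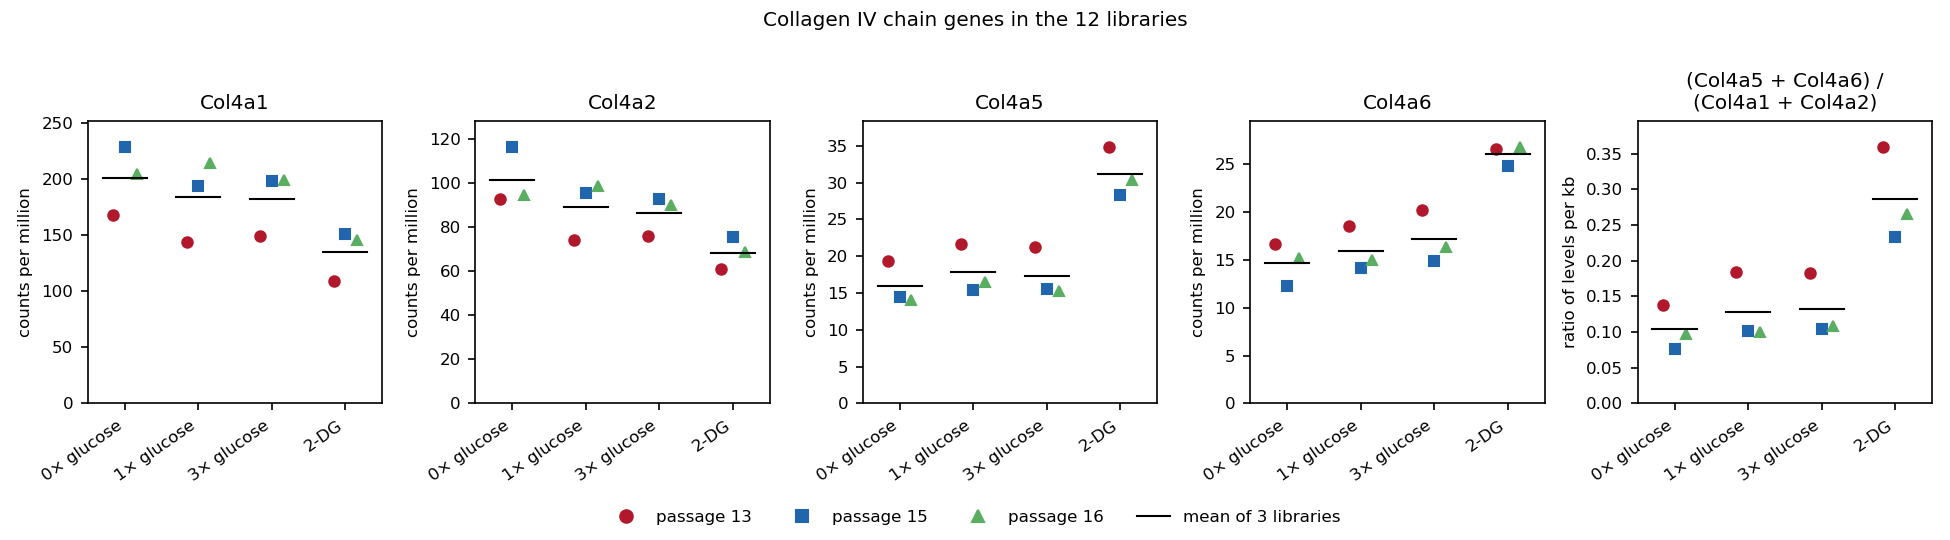
Levels in CPM of 4 collagen IV genes and, at the right, the ratio of their summed levels per kb, with 1 point per library and a line at the mean of 3. The ratio was 0.233 to 0.360 in 2-DG and at most 0.184 in the other 9 libraries.

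StringTie divided the reads of a gene between its transcripts, and the most abundant transcript held 62.2% of the Col4a5 counts, 50.5% of Col4a6 and 55.4% of Lamb2. When that transcript was tested alone, the 3 genes were not called (edgeR adjusted p = 0.72, 0.546 and 0.943). Their log2 fold changes were then 2.34, 0.83 and 0.64, against 0.8, 0.71 and 0.65 from all transcripts. In that fit 6 matrix genes were called, against 3.88% of all genes. Col4a5 was also lost without the 1× glucose library of passage 15 (edgeR adjusted p = 0.0559).

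Of the other basement membrane collagens, Col7a1, the anchoring fibril collagen, rose from 4.3, 2.89 and 3.09 CPM to 6.15, 4.74 and 4.74 CPM (log2 fold change 0.6 ± 0.18 SE, edgeR adjusted p = 0.044). This call lay close to the threshold and was lost in 8 of 13 alternatives, the largest edgeR adjusted p being 0.156. Those 8 were fitted without the block, with which the edgeR adjusted p was 0.00123. Col18a1 stood at 173, 95.3 and 99.8 CPM in 1× glucose and at 191, 134 and 134 CPM in 2-DG. It was higher in each passage, the groups overlapped (edgeR adjusted p = 0.572), and it was called with the block (log2 fold change 0.35 ± 0.069 SE, edgeR adjusted p = 0.00214 with the block). Over the alternatives its value ran from 0.12 to 0.65. Leaving out any 1 library of 1× glucose or the passage 13 library of 2-DG moved it by over 1.5 times. These fits had no block, so the groups compared no longer held the same passages. Col4a4, a chain of the kidney and inner ear network, stayed at 0.329 CPM or less in every library.

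Fibronectin, the fibrillins and the nidogens gave 1 call of 5 (20%, beside the 17.6% of all genes), Nid2. Nid2, the more abundant nidogen, stood at 304, 363 and 355 CPM in 1× glucose and at 403, 504 and 424 CPM in 2-DG. It was above the controls in every library (log2 fold change 0.38 ± 0.10 SE, edgeR adjusted p = 0.0296). The call was lost in 6 of 13 alternatives, all without the block, with an edgeR adjusted p of at most 0.107. Among them were leaving out either passage 15 library, the 1× glucose library of passage 13 or the 2-DG library of passage 16. With the block the edgeR adjusted p was 7.15e-05. Fn1 was at 677, 1473 and 1852 CPM in 1× glucose and at 469, 1220.1 and 1202 CPM in 2-DG, lower in each passage. The spread between passages was larger than this difference (edgeR adjusted p = 0.542), and with the block Fn1 fell (log2 fold change -0.47 ± 0.10 SE, edgeR adjusted p = 0.00439 with the block). Over the alternatives the Fn1 value ran from -1.0 to -0.14. Leaving out the passage 13 or 16 library of 1× glucose or the passage 13 library of 2-DG moved it by over 1.5 times. Those fits had no block, so their groups no longer held the same passages. Nid1 stood at 10.0, 14 and 16.4 CPM and 9.57, 11.3 and 12.2 CPM and passed in neither fit (edgeR adjusted p = 0.0511 with the block). Fbn2, the fibrillin of early development, was at 47.1, 219 and 170.2 CPM in 1× glucose and at 49.6, 153 and 105 CPM in 2-DG. In passage 13 it was slightly higher and in the other two lower, and this difference between passages was not tested. Fbn2 was called lower with the block (edgeR adjusted p = 0.019) and Fbn1 was not (0.0705).

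Fibrillar collagens gave 3 calls of 10 (30%, beside the 17.6% of all genes), with Col11a2 and Col27a1 higher and Col11a1 lower. The 2 collagen XI genes, whose products join in 1 cartilage collagen, moved apart. Col11a2 rose from 7.77, 8.81 and 8.9 CPM to 15.9, 15.1 and 14 CPM (log2 fold change 0.82 ± 0.11 SE, edgeR adjusted p = 0.00107). Col11a1 fell from 20.4, 18.6 and 20.0 CPM to 14.7, 14.9 and 14.1 CPM (log2 fold change -0.43 ± 0.084 SE, edgeR adjusted p = 0.00635). Neither gene's groups overlapped, but with the most abundant transcript alone Col11a2 was not called (edgeR adjusted p = 0.24). Col27a1, a fibrillar collagen of cartilage, stood at 34.5, 31.4 and 34.1 CPM and 43.3, 42.5 and 51.5 CPM (log2 fold change 0.46 ± 0.11 SE, edgeR adjusted p = 0.0166), a call lost without the 1× glucose library of passage 15 or the 2-DG library of passage 16 (edgeR adjusted p = 0.073 and 0.0683) and with the most abundant transcript alone (0.964). The 2 fibrillar collagens with the highest mean CPM over the 12 libraries were not called in either fit. Col2a1, the main cartilage collagen also found in the notochord, stood at 57.6, 35.9 and 31.2 CPM in 1× glucose and 42.5, 35.9 and 30.3 CPM in 2-DG. Col5a1 stood at 29.5, 40.1 and 42.1 CPM and 34.2, 38.6 and 35.1 CPM. Their 95% intervals were -0.83 to 0.43 and -0.35 to 0.26 on the log2 scale. With the block Col1a2, Col3a1 and Col24a1 were called lower, with log2 fold changes of -0.85, -0.82 and -0.41.

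The other collagens gave 4 calls of 18 (22.2%, beside the 17.6% of all genes), with 13 of the 18 below 0 and a median log2 fold change of -0.33. Col12a1, a collagen that binds to the surface of fibrils, stood at 14.4, 7.18 and 6.57 CPM in 1× glucose and at 1.58, 1.44 and 2.64 CPM in 2-DG. Every 2-DG library was below every control, 4.96-fold lower by the fit (log2 fold change -2.31 ± 0.47 SE, edgeR adjusted p = 0.00848). Col6a1, a chain of beaded filaments, fell from 1.43, 1.39 and 1.34 CPM to 0.585, 0.762 and 0.533 CPM, on 20 to 28 counts per 2-DG library (log2 fold change -1.14 ± 0.23 SE, edgeR adjusted p = 0.00777). Col13a1, a transmembrane collagen of cell adhesions, fell from 34.8, 34.2 and 35.1 CPM to 24.1, 29.1 and 26.3 CPM (log2 fold change -0.39 ± 0.077 SE, edgeR adjusted p = 0.00752). Its counts were spread over 27 transcripts, and the most abundant of them, with 31.2% of the counts, went the other way (log2 fold change 0.53, edgeR adjusted p = 0.899). Col20a1 was the single member of this group called higher. It went from 6.34, 5.84 and 5.92 CPM to 10.8, 11.7 and 10.0 CPM (log2 fold change 0.85 ± 0.11 SE, edgeR adjusted p = 0.00105). Col25a1, a transmembrane collagen of neurons, stood at 10.1, 12.9 and 15.7 CPM and 11.8, 16.2 and 17.9 CPM and was not called (edgeR adjusted p = 0.461). With the block Col9a1, Col14a1, Col17a1 and Col22a1 were called lower as well, with log2 fold changes of -1.1, -0.71, -1.2 and -0.31.

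Genes that make, bind or remodel these proteins were read from lists of related genes. Values are log2 fold changes ± SE of genes called by edgeR. Of 27 tested genes for collagen folding, modification and secretion, 6 rose and 0 fell in 2-DG (22.2%, beside the 17.6% of all genes). P4hb, the β subunit of prolyl 4-hydroxylase and a protein disulfide isomerase, rose by a log2 fold change of 0.94 ± 0.075 SE (edgeR adjusted p = 6.29e-05). P3h1, which 3-hydroxylates collagen prolines in a complex with Crtap, rose by 0.91 ± 0.084 (edgeR adjusted p = 1.41e-04). Among 17 other basement membrane components 3 rose and 2 fell, with Sparc, a collagen-binding protein, at 1.04 ± 0.16 and Fras1 at 0.8 ± 0.084, and with Ntn4, a laminin-binding netrin, at -1.0 ± 0.22 and Fbln2 at -0.88 ± 0.26.

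Of 18 receptors, Itga3, the α subunit of a receptor for α5 laminins, rose 4.44-fold (log2 fold change 2.15 ± 0.21 SE, edgeR adjusted p = 1.85e-04), and Ddr1, a collagen receptor, rose by 0.49 ± 0.14. Itgb8, whose integrin binds latent TGF-β, fell (log2 fold change -1.52 ± 0.36 SE, edgeR adjusted p = 0.0158). Of 14 proteases and inhibitors Mmp15 rose (0.36 ± 0.092) and Mmp11 fell (-0.38 ± 0.10). Of 15 genes of microfibrils and the provisional matrix 3 rose and 2 fell, with Efemp1 at 1.1 ± 0.30, Ltbp3 at 0.86 ± 0.14, Hapln1 at -1.47 ± 0.32 and Mfap4 at -0.49 ± 0.15. The shares called in these lists lay from 14.3% to 33.3%, around the 17.6% of all genes.

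Markers of cell types moved in the same libraries. Of 8 neural progenitor markers 4 rose in 2-DG (Sox1, Pax6, Irx3 and Neurog2) and 0 fell (50%, beside the 17.6% of all genes). The 8 summed to 462, 179.9 and 179 CPM in 1× glucose and 455, 238 and 228 CPM in 2-DG. Nkx1-2 went the other way without being called, at 238, 78.9 and 87.4 CPM against 92.8, 50.1 and 61.8 CPM. Of 8 paraxial mesoderm and somite markers Hes7 fell and 0 rose (12.5%), with sums of 875, 1749.8 and 1594 CPM and 721, 1447 and 1195 CPM. Meox1, Tcf15, Foxc2 and Aldh1a2 were higher in 2-DG in passage 13 but lower in passages 15 and 16. In passage 13 Meox1 went from 36.3 to 112 CPM, Tcf15 from 11.1 to 31.7 CPM and Foxc2 from 42.6 to 96.7 CPM. Tbx6, Msgn1, Hes7 and Dll3 were lower in each passage. T, the mesoderm gene brachyury, fell by 1.57 on the log2 scale. Endothelial markers, of 7 tested, had Etv2 lower (14.3%), with sums of 3.73, 9.28 and 11.5 CPM and 2.17, 2.91 and 2.61 CPM, and Emcn was at 0 in every library. Of 6 notochord markers Chrd rose and Noto fell (33.3%), the latter from at most 0.324 CPM in 1× glucose to 0 in 2-DG. Foxa2 was lower in each passage without being called, at 0.351, 0.947 and 2.22 CPM against 0.0878, 0.327 and 0.666 CPM. The sums were 16.9, 15.3 and 24.1 and 23.1, 23.3 and 28.6 CPM. Krt8 made the largest part of them, with 9.81, 10.0 and 15.5 and 13.4, 14.7 and 19.4 CPM. The part of these cell types in the matrix changes was not tested. Of the markers of extraembryonic endoderm, which makes basement membrane in abundance, none of the 7 tested was called. They summed to 10.9 to 16.8 CPM in 1× glucose and 11.3 to 13.1 CPM in 2-DG, and to at most 21.7 CPM in any library. Dab2 was at 5.65 to 8.35 CPM, Gata6 at 0.68 to 5.45 CPM and Sox17 at 0.406 to 4.21 CPM over the 12 libraries, while Ttr and Afp were at 0 in all of them. Fibroblast markers summed to 30.9 to 33.5 CPM and 29.2 to 34.1 CPM, with Prrx1 higher and Pdgfrb lower of 5 tested (40%), and Fap was at 0 in every library.

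Glucose level was compared next, to see whether removing or raising the sugar changed these genes. In 0× glucose against 1× glucose 0 of 50 matrix genes were called, beside 0.0118% of all genes. Of the 50, 1 had an unadjusted p under 0.05 (edgeR), beside 306 of all 16966 tested genes. With the passage as a block 0 were called, beside 0.0177% of all genes, and 11 had an unadjusted p under 0.05, beside 1591 of all 16966. In 3× glucose 0 were called, beside 0% of all genes, both without and with the block. There 0 and 2 had an unadjusted p under 0.05, beside 178 and 876 of all 16966. DESeq2 called 0 matrix genes in either comparison, beside 0.0708% of all genes in 0× glucose and 0.0118% in 3× glucose. The median log2 fold change of the matrix genes was 0.05 in 0× glucose and 0.04 in 3× glucose.

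For the genes called in 2-DG the intervals limit roughly what could have been missed. They rest on a normal approximation and are too narrow for so few libraries. That of Col13a1 in 0× glucose, 0.0048 to 0.31, left out 0 at an unadjusted edgeR p of 0.0689. Lama5 stood at 239, 146 and 160.4 CPM in 0× glucose and 254, 171 and 204 CPM in 3× glucose, with 95% intervals of the log2 fold change against 1× glucose of -0.40 to 0.36 and -0.19 to 0.57. Lamb2 stood at 33.6, 30.9 and 32.2 CPM and 32.6, 29.4 and 32.7 CPM, with intervals of -0.13 to 0.17 and -0.16 to 0.14. Their values in 2-DG, 0.86 and 0.65, lie outside these. The same holds for Col4a5, at 19.4, 14.4 and 14 CPM and 21.2, 15.5 and 15.3 CPM (-0.51 to 0.19 and -0.39 to 0.31), and for Col12a1, at 14.5, 5.91 and 5.85 CPM and 15.5, 8.29 and 8.19 CPM (-0.96 to 0.76 and -0.68 to 1.04). Fn1 was at 1016, 1672 and 1945 CPM in 0× glucose and 747, 1405 and 1721 CPM in 3× glucose, and its intervals were wide without the block (-0.68 to 1.11 and -0.94 to 0.85). Nid2 stood at 329.5, 398 and 347 CPM and 335, 385 and 358 CPM. The matrix gene with an unadjusted p under 0.05 in 0× glucose was Col1a1, which had 0, 11 and 0 counts there and 23, 16 and 25 counts in 1× glucose (edgeR adjusted p = 1.0). Without the 0× glucose library of passage 15 Col1a1 was called, with 2 remaining libraries at 0. No fold is given for so few counts.

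**Figure D4:**
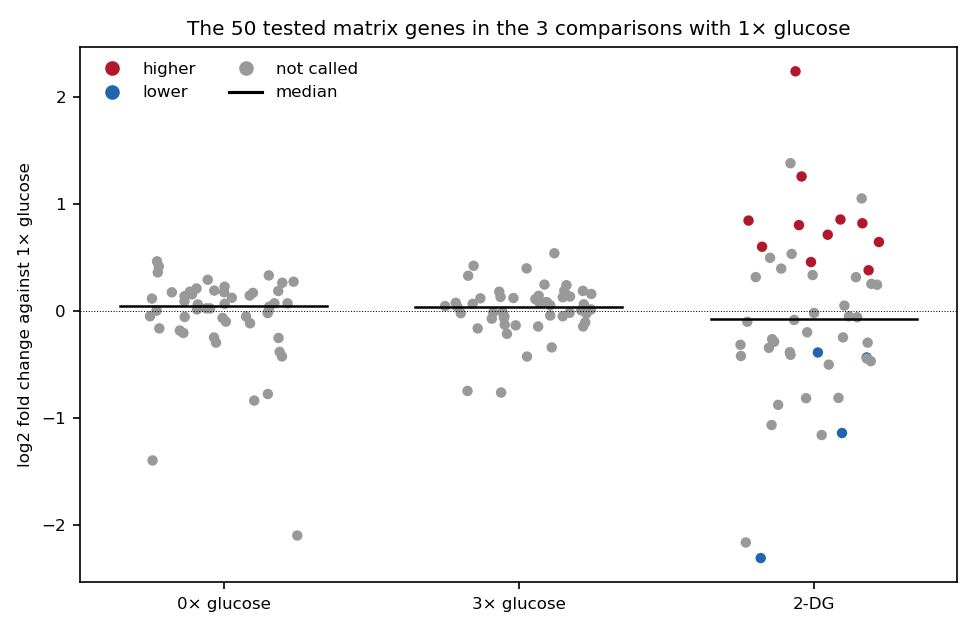
Log2 fold change against 1× glucose of the 50 tested matrix genes under 2-DG and in 0× and 3× glucose, with a line at the median and colour for genes past the threshold. The 0× and 3× glucose points are all grey, and 11 red and 4 blue points stand in 2-DG. The 3 columns share the 1× glucose libraries.

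The difference between 2-DG and 0× glucose was tested directly, as both limit the use of glucose. Of 50 matrix genes 15 differed, 11 higher and 4 lower in 2-DG, beside 18.9% of all genes, 33 with the block, beside 43.1%, and 29 without passage 13, beside 22.6%. This comparison shares the 2-DG libraries with that against 1× glucose. Lama5 was 1.83-fold and Lamb2 1.55-fold higher in 2-DG (edgeR adjusted p = 0.0115 and 5.61e-04). Col4a5 and Col4a6 were 1.95-fold and 1.78-fold higher (0.00473 and 0.00385). Col4a2, at 92.8, 116 and 94.6 CPM in 0× glucose, was 1.48-fold lower in 2-DG (edgeR adjusted p = 0.0148), a call lost without the 0× glucose library of passage 15 (0.058) or the 2-DG library of passage 13 (0.0572) and with the most abundant transcript alone (0.0625). Col12a1 was 4.63-fold lower (0.00949). Lama4, Lamb3, Col7a1, Col11a2, Col20a1 and Col27a1 were higher too, and Col11a1 and Col13a1 lower. Of these, Col7a1 was lost in 8 of 13 alternatives, and Lamb3, Col11a2, Col27a1 and Col13a1 with the most abundant transcript alone, as were Lamb2, Col4a5 and Col4a6. Col1a1 was called higher in 2-DG (edgeR adjusted p = 0.0484) against the low counts in 0× glucose given above, and 9 of 13 alternatives lost that call.

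The passages were compared last, with treatment in the fit. Of 50 matrix genes 30 differed between passage 13 and passages 15 and 16 (60%), 21 lower and 9 higher in passage 13, beside the 46.1% of all genes. The 4 libraries of a passage are 4 treatments of cells of that passage, so the test compares these cultures and not passage number as such. Fibronectin, both fibrillins and both nidogens were all lower in passage 13. Fbn2 ranged from 47.1 to 66.9 CPM in the 4 libraries of passage 13, from 153 to 302 CPM in passage 15 and from 105 to 181 CPM in passage 16, 3.42-fold lower in passage 13 (log2 fold change -1.77 ± 0.095 SE, edgeR adjusted p = 7.34e-07). Fn1 ranged from 469 to 1016 CPM in passage 13, from 1220.1 to 1672 CPM in passage 15 and from 1202 to 1945 CPM in passage 16 (log2 fold change -1.13 ± 0.082 SE, edgeR adjusted p = 3.30e-06). For both genes every passage 13 library was below all others. With the most abundant transcript alone Fn1 was not called (log2 fold change -0.90, edgeR adjusted p = 0.492). Fbn1 and Nid1 had log2 fold changes of -0.69 and -0.38 and Nid2 of -0.19.

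The collagen IV pairs also differed between passages. Col4a1 and Col4a2 were lower in passage 13 (log2 fold change -0.43 ± 0.039 and -0.27 ± 0.047 SE), and Col4a5 and Col4a6 were higher (0.4 ± 0.049 and 0.26 ± 0.062 SE), with edgeR adjusted p of 1.37e-05, 7.79e-04, 9.78e-05 and 0.00544. With the most abundant transcript alone the Col4a5 and Col4a6 calls were lost (edgeR adjusted p = 0.116 and 0.847). Among laminins Lama1 and Lamb1 were lower in passage 13 (-0.71 and -0.29) and Lama5 was higher (0.36), while Lamb2 and Lamc1 were not called. Lama3, with few counts, was lower as well (-1.09). Col18a1 ranged from 173 to 191 CPM in passage 13 and from 95.3 to 134 and 93 to 134 CPM in passages 15 and 16, higher in passage 13 (log2 fold change 0.77 ± 0.051 SE, edgeR adjusted p = 1.87e-06). Col2a1 was 1.61-fold higher (edgeR adjusted p = 2.80e-05). Col12a1, the called gene with the largest fall in 2-DG, was higher in passage 13 (log2 fold change 0.85, edgeR adjusted p = 0.00536), at 14.4 to 15.5 CPM in the libraries without 2-DG against 5.85 to 8.29 CPM in the other passages. In 2-DG it stood at 1.58, 1.44 and 2.64 CPM, where passage 13 lay between the other two.

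Of the remaining collagens, 11 were lower in passage 13, from Col14a1 (log2 fold change -1.17) and Col5a2 (-1.15) to Col5a1 (-0.29), and Col7a1, Col9a3 and Col22a1 were higher (0.33, 0.44 and 0.21). The calls of Col9a3 and Col22a1 were lost in 11 and 13 of 16 alternatives. Passages 16 and 15 differed in 1 matrix gene, Fbn2, lower in passage 16 (log2 fold change -0.52 ± 0.098 SE, edgeR adjusted p = 0.0211), beside 4.2% of all genes. The Fbn2 call was lost in 7 of 16 alternatives, among them without the 2-DG library of passage 16 (edgeR adjusted p = 0.0501). DESeq2 added Col2a1, Col23a1 and Nid2 there, beside 6.37% of all genes. The count of matrix genes was 0 without the 1× glucose library of passage 15, beside 0.498% of all genes. It was also 0 without any 1 of the passage 15 and 16 libraries of 0× and 3× glucose, beside 0.438% to 0.9%. Without the 1× glucose library of passage 16 or the 0× glucose library of passage 13 it was 2, beside 1.22% and 3.93%. Without the 2-DG library of passage 13 it was 5, beside 8.15% of all genes.

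**Figure D5:**
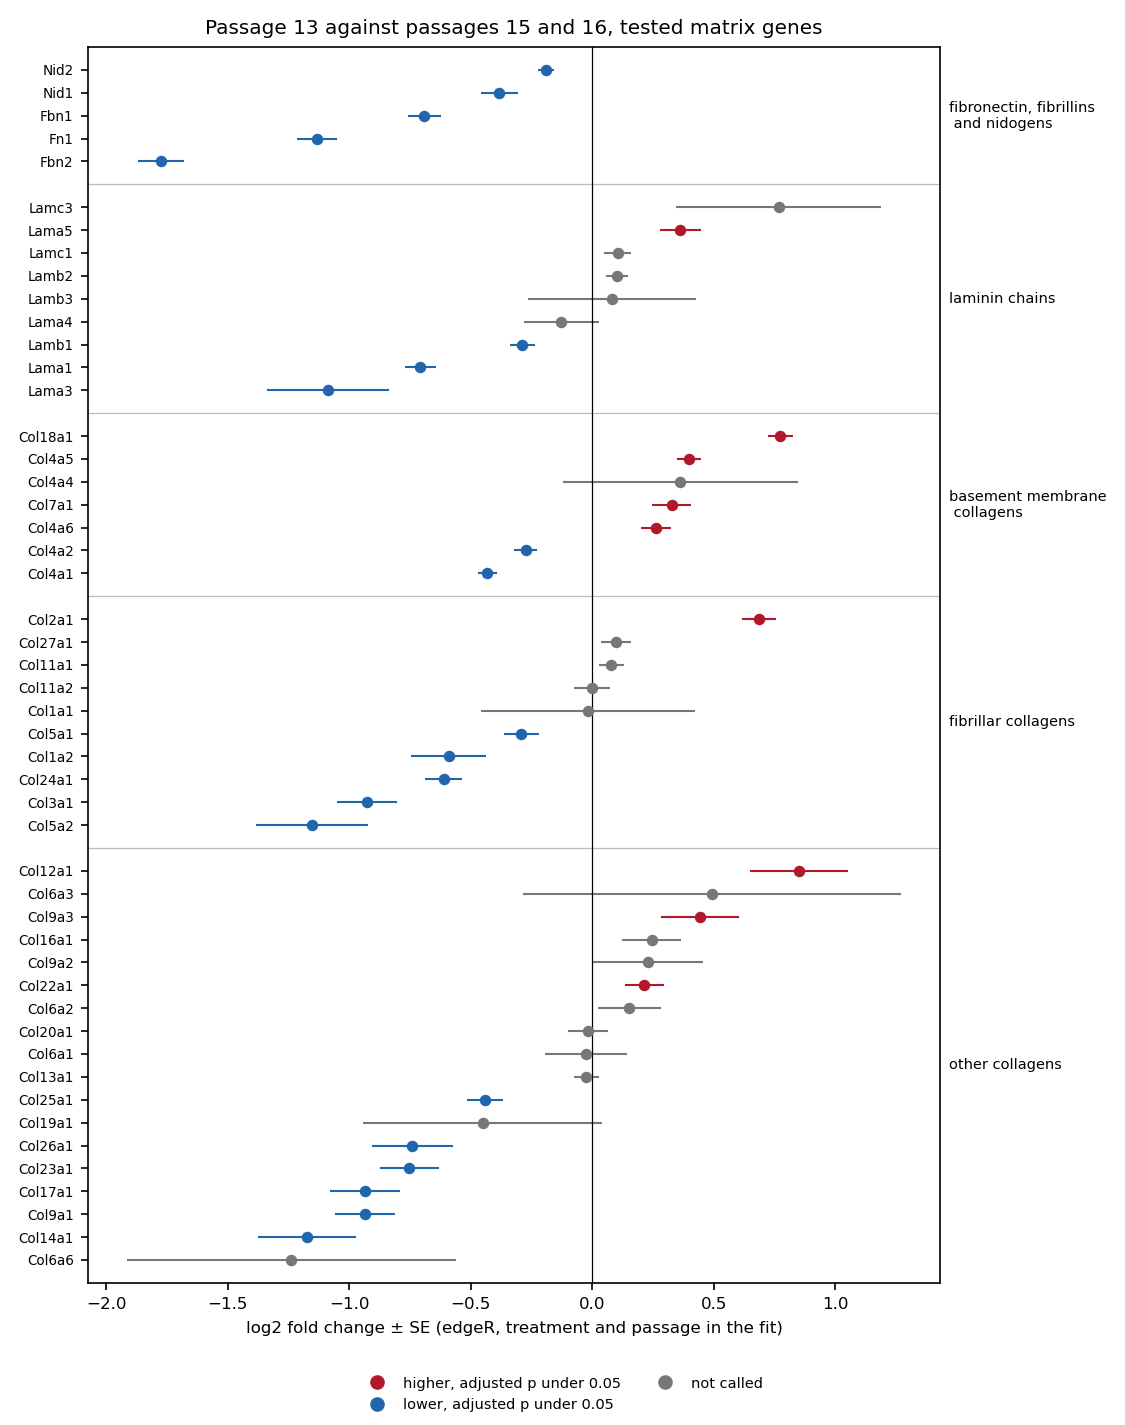
Log2 fold change in passage 13 against passages 15 and 16 of the tested matrix genes reported here, by role, with SE bars from the fit with treatment and passage. Blue points, 21 in all, were lower and red points, 9 in all, higher in passage 13, with Fbn2 and Fn1 blue and Col18a1 and Col2a1 red.

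Cell type markers also differed between the passages, read beside the 46.1% of all genes. Of 8 paraxial mesoderm and somite markers 6 (75%) were lower in passage 13, with Meox1, Tcf15, Foxc2 and Aldh1a2 at log2 fold changes of -1.77, -1.7, -1.97 and -1.37, and their summed level in 1× glucose was 875, 1749.8 and 1594 CPM. Of 8 neural progenitor markers 7 (87.5%) were higher, with Sox2 at 1.33 and Nkx1-2 at 1.3. The 8 summed to 462, 179.9 and 179 CPM in 1× glucose. There Pax6 stood at 4.24, 4.34 and 2.72 CPM and Neurog2 at 0.878, 0.763 and 1.3 CPM. The posterior genes T and Cdx2 were also higher in passage 13 in 1× glucose, at 322, 166 and 187 CPM and 338, 135 and 148 CPM. In 2-DG T was at 64.6, 67 and 96 CPM. Of 7 endothelial markers 5 were lower and 1 higher (85.7%), with Kdr at -2.37. Of 7 extraembryonic endoderm markers Sox17, Sox7 and Gata6 were lower and Gata4 higher (57.1%), of 6 notochord markers Foxa2 and Krt8 were lower and Chrd higher (50%), and of 5 fibroblast markers Thy1 was lower (20%), so that the last 3 lists lay near or below the share of all genes. Their part in the matrix differences between passages was not tested, and passage cannot be told apart from anything else in which these cultures differed.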

How the data were processed

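RNA-seq was read from 12 libraries of day 4 gastruloids, in 4 groups of 3. The authors deposited 1 table per library of StringTie estimated counts for RefSeq transcripts, whole numbers in every row, after trimming with Trim Galore and alignment with HISAT2 to mm10. SAMtools, Picard and DESeq2 are also named in the submitters' processing notes. Tool versions and the strand setting of the counting are not given in the sources used here, so genes with overlapping antisense transcripts are uncertain. The head-to-head genes Col4a1 and Col4a2, whose 5′ ends overlap, are an example. The 3 deposited tables of the authors' own DESeq2 comparisons hold fold changes and p-values and were not used.

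Counts of all transcripts were summed per gene symbol. Genes were kept by filterByExpr, libraries scaled by TMM, and group means compared by the edgeR quasi-likelihood test (edgeR 4.0.16, R 4.3.3), two-sided, with Benjamini-Hochberg adjustment over all 16966 tested genes and a threshold of 0.05. The script was tested on simulated counts that held no differences between passages, so that test does not cover them. CPM values use the TMM-scaled library sizes. Depth was 31902471 to 45956080 counts per library. The smallest p that an exact permutation test of 3 against 3 libraries allows is 0.1, so the model across all genes was used.

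The passages pair the libraries. Deviations from the group means correlated at 0.223 to 0.804 in all 18 pairs of libraries of the same passage, and at -0.630 to 0.355 in the 36 pairs that differ in passage and group. The fit with passage as a block is therefore printed where it changes a call. The study counts the 3 libraries of a group as biological replicates, all of 1 cell line. Per the study's methods, the treatments of a replicate were made on gastruloids of 1 plate.

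The alternatives were the block, median-of-ratios size factors, no filter on low counts, DESeq2 1.42.0, a fit of the compared groups only, the most abundant transcript of each gene alone, leaving out each library in turn and, added after the data were seen, leaving out passage 13. In the treatment comparisons only the first of these has the block, so the others do not use the pairing by passage. Values in every library are given for matrix genes called against 1× glucose and for the 2 most abundant tested genes of each role. Of each related list the called genes with up to 2 largest rises and 2 largest falls are named. Other genes were named after their values were seen. The matrix genes and lists were chosen with earlier results of these data known. The values of 1 tested matrix gene are not reported here by name, and it is included in the counts.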

Additional observations from a re-analysis of the deposited data

How the results depend on the processing

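Without a block 15 matrix genes were called in 2-DG against 1× glucose and 15 against 0× glucose (17.6% and 18.9% of all genes). With the passage block, which pairs the libraries, these counts were 30 and 33 (41.3% and 43.1% of all genes), with the most abundant transcript alone 6 and 5 (3.88% and 4.61%), and without passage 13 they were 26 and 29 (20.1% and 22.6%). Leaving out 1 library at a time gave 9 to 15 and 13 to 19 (10% to 13.6% and 11.8% to 15.1% of all genes). In 0× glucose against 1× glucose leaving out 1 library gave 0 to 1, beside 0.00577% to 0.0173% of all genes. In 3× glucose no alternative called a matrix gene, beside at most 0.0119% of all genes. The comparison of passage 13 with passages 15 and 16 gave 30 calls (46.1% of all genes) and 15 with the most abundant transcript alone (15.3%). With 1 library left out it gave 28 to 32 (34.8% to 45.6%). The comparison of passage 16 with passage 15 gave 1 (4.2% of all genes) and 4 by DESeq2 (6.37%). It gave 0 with the most abundant transcript alone (0.0476%) and 0 to 5 with 1 library left out (0.438% to 8.15%).

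In all, 4 values changed sign, none of them significant in the alternative (edgeR): in 2-DG against 1× glucose the log2 fold change of Col13a1 was 0.53 and that of Col25a1 -0.18 with the most abundant transcript alone, Col2a1 ranged from -0.37 to 0.11 and Col5a1 from -0.19 to 0.049 with 1 library left out. Of the other values of named matrix genes, 860 kept their direction and side of the threshold, 103 lost the threshold and 10 passed it. In the treatment comparisons the fits with 1 library left out had no block, so their groups no longer held the same passages. The cause of these changes was not tested. Col11a1, Col12a1, Col20a1, Col6a1 and Lama4 were called in 2-DG against 1× glucose under all 13 alternatives. Low counts limit Lama4, Lamb3, Col6a1 and Col1a1.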
